A study of Mus musculus with 2 samples.

Results

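The genes described here build and move motile cilia, the beating hair-like processes of ependymal cells, which line the brain ventricles. They were picked by name among the non-control features of both arrays. The choice took the axonemal dyneins, the radial spoke genes, the tektins, the intraflagellar transport genes, the Spef genes and 7 further genes named singly. Of the 7, 6 had features under their name, and Pifo, which had none under that name, was not analysed here. The choice found 49 genes on 76 probes, out of 34741 genes and transcripts on 55681 probes. The samples were 1 hippocampus sample from 5/6Nx mice and 1 from sham-operated mice, both of the outbred ICR strain and taken 8 weeks after the operation. 5/6Nx stands for 5/6 nephrectomy, the surgical removal of most kidney tissue as a model of chronic kidney disease. The labels give neither the age or sex of the mice nor the number of animals behind an array. With 1 array in each group nothing could be tested, and all differences given are descriptions of this pair of arrays.

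A motile cilium is built around an axoneme, a ring of microtubule doublets with a central pair of single microtubules. Outer and inner dynein arms on the doublets make them slide. Radial spokes connect the doublets with the central pair, tektins are filaments inside the doublet wall, and intraflagellar transport carries building blocks along the axoneme. Ependymal cells bear tufts of such cilia on the ventricle side, and the epithelium of the choroid plexus bears tufts of cilia too. Neurons and astrocytes bear a primary cilium, which lacks the motility apparatus but is built by the same transport system, so the Ift genes are active far beyond the ependyma. The transcription factor FOXJ1 and the RFX factors are the known regulators of this program, and RFX factors bind the X-box, an inverted repeat near the start of cilium genes.

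One arm of the X-box, and not the full repeat, was searched in the promoters of the genes studied. RefSeq promoters (GRCm38.p6, from 250 bases before to 50 after the start site) were matched for 42 of the 49 genes, 45 promoters in all. The arm, GTTGCC on either strand, stood in 20 of these 45 promoters (44.4%), against 4111 of all 32851 mouse promoters (12.5%). By gene it stood in 19 of 42, against 3821 of 27025 genes. The forkhead sequence TGTTTAC, a site of the FOXJ1 type, stood in 3 of 45 (6.67%) against 3.65% of all promoters, and only the promoter of Mlf1 held both. The arm and the forkhead site do not overlap there, and a match is a description of the sequence only. Overlapping promoters of Tekt2 hold the same arms, so the 26 matches are 24 distinct arms, each placed by the start site nearest to it. They lay between -200 and 21 bases from the start site, with a median of -24. Within the last 100 bases before the start, an arm stood in 10 of the 45 promoters (22.2%) against 4.67% of all promoters. The windows below show those 100 bases for genes of different axonemal structures, written 5′ to 3′ on the gene's strand and ending at the base before the start site. They are shown because arms recur in several of the groups into which the results are ordered. The promoters of the outer arm heavy chains held no arm. Among those of the radial spoke genes only that of Rsph3b held an arm, after the start site. In the windows, capitals mark the arm on either strand.
Dnaic2, outer arm intermediate chain, chr11:114727319-114727418, plus strand: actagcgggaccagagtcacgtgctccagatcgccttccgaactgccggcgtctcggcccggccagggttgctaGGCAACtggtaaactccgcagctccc
Dynlrb2, dynein light chain, chr8:116504915-116505014, plus strand: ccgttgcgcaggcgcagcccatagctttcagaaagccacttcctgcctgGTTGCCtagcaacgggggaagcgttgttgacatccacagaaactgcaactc
Hydin, central pair protein, chr8:110266877-110266976, plus strand: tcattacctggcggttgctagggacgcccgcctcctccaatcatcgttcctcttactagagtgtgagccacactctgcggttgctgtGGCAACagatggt
Fam183b, ciliary protein, chr11:58801961-58802060, minus strand: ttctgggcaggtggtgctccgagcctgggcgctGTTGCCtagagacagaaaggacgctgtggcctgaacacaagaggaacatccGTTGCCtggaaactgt
Tekt1, tektin, chr11:72361883-72361982, minus strand: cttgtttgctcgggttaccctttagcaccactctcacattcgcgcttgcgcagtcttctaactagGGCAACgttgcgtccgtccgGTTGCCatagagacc
Ift57, intraflagellar transport, chr16:49699194-49699293, plus strand: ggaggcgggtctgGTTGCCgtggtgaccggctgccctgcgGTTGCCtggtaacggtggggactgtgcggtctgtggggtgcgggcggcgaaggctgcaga
Fam183b, Tekt1 and Ift57 carry 2 arms in the window, and the others shown carry 1. The arm was also frequent in the promoters of 2 comparison lists, standing in 50.7% of 69 promoters of other motile axoneme genes and in 32.8% of 58 promoters of primary cilium genes.

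**Figure D1:**
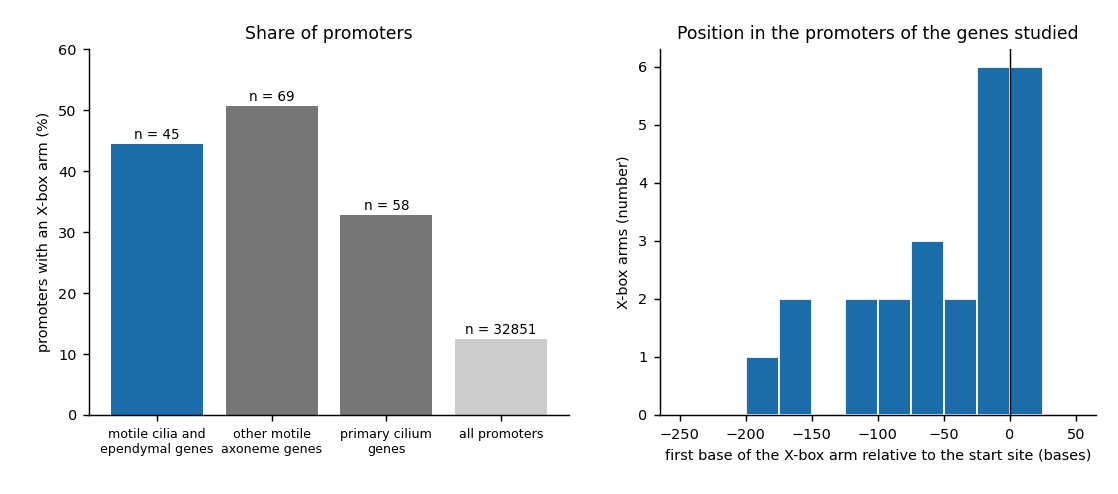
Left, share of RefSeq promoters (percent, axis from 0) that hold the X-box arm on either strand, for the genes studied, for the comparison lists and for all mouse promoters, with the number of promoters above each bar. Right, number of distinct arms (24) in the promoters of the genes studied by position relative to the start site, in bins of 25 bases. The share was 44.4% in the genes studied against 12.5% in all promoters, and 12 of the 24 arms begin within 25 bases of the start site.

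RNA was labelled with Cy3 and read on 1-colour 60-mer arrays of 1 slide. On the 5/6Nx array 72.5% and on the sham array 72.7% of 59305 non-control spots were well above background. Values are given as normalised signal, set so that the 75th percentile of each array is 1000, and differences are 5/6Nx minus sham on the log2 scale. The scanner software attaches an error to each spot. For the difference of the genes measured here it lay between 0.204 and 0.345 (median 0.204, log2). Where a gene had several measured probes, the SD of the difference among them was also taken. Its median was 0.202 over all such genes and 0.293 over the 12 of the genes studied here. Both come from within this pair of arrays and hold nothing of the variation between animals. Of the 76 probes, 64 were well above background on the 5/6Nx array and 62 on the sham array. 47 of the 49 genes were measured on both arrays, and Dnahc3 and Tekt3 were well above background on neither.

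As a group the 47 cilium genes picked by name stayed close to the rest of the transcriptome. At least 2-fold higher in 5/6Nx was 1 of 47 (2.13%), against 4.89% of all 25917 measured genes, and at least 2-fold lower were 3 of 47 (6.38%), against 3.29% of all genes. Together 8.51% of the cilium genes differed at least 2-fold, against 8.18% of all genes, so the share lay near the background. The median difference was -0.09 for the 47 genes and 0.05 for all measured genes, and the SD over genes was 0.52 and 0.60. Below 0 lay 29 of the 47 (61.7%), against 44.6% of all genes. In tissue RNA, fewer cells of a type and less RNA per cell cannot be told apart. Scaling to spike-in controls moved the median of all genes to -0.16 and that of the cilium genes to -0.31, a constant that leaves their gap of -0.15 as it was. With that scaling 802 of all genes were at least 2-fold higher and 1403 lower, against 1268 and 852 with the 75th percentile.

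**Figure D2:**
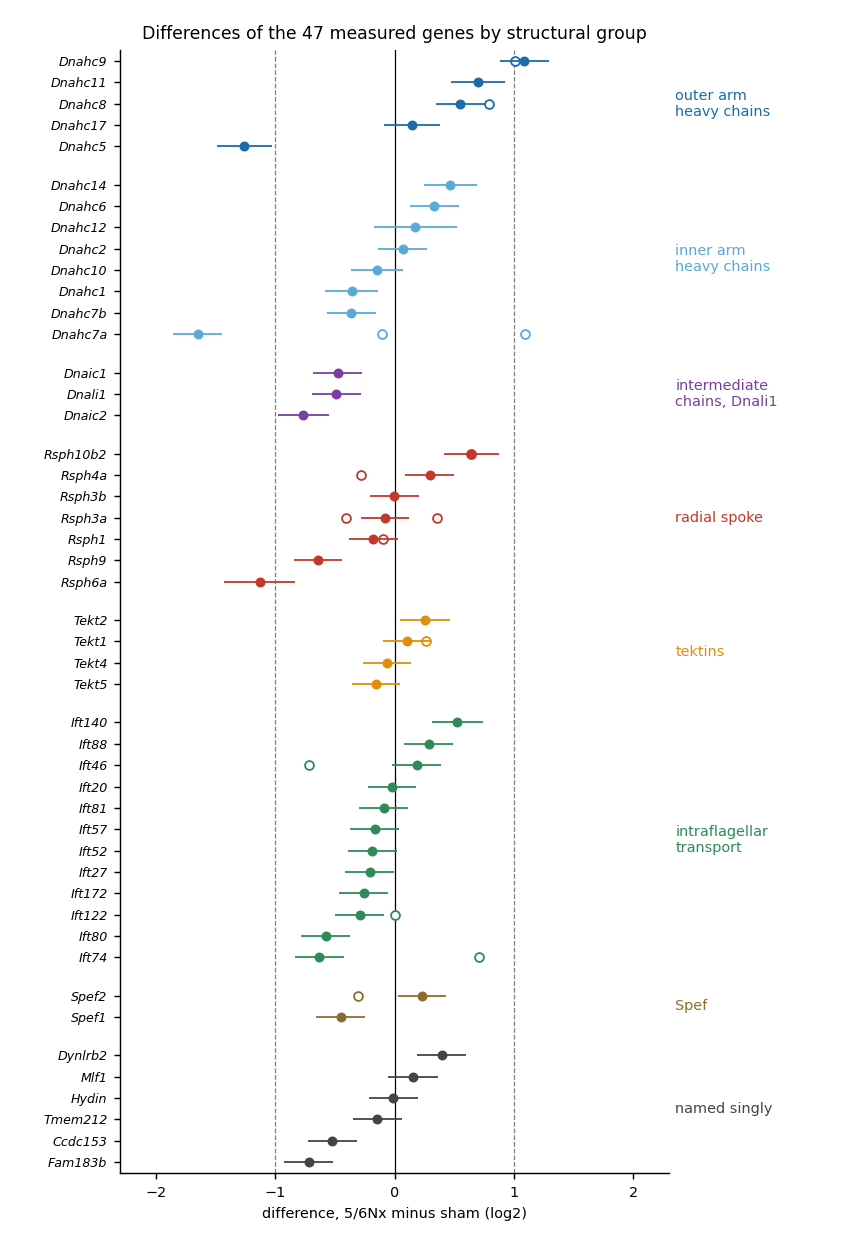
Difference between 5/6Nx and sham (log2, horizontal axis) of each of the 47 measured genes, ordered by structural group. Filled points are the probe that represents the gene with the scanner's error as a bar, open points are further measured probes of the gene, and dashed lines mark 2-fold. Dnahc9 lies beyond the line on the right and Dnahc5, Dnahc7a and Rsph6a on the left, while a second probe of Dnahc7a lies on the opposite side.

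The outer dynein arm gives the cilium most of its beating force. Its heavy chains are motor proteins, and 5 of them were measured, with a median difference of 0.55. Of these, 1 was at least 2-fold higher and 1 was lower by that size, against 4.89% and 3.29% of all measured genes. In groups this small, here and below, a count of 0 or 1 says little. Dnahc9 (current symbol Dnah9), a heavy chain of the distal outer arm, had a normalised signal of 945 in 5/6Nx and 445 in sham. Its difference was 1.09 with a scanner error of 0.20, or 2.12-fold higher in 5/6Nx. This probe (chr11:65934611-65934670 on mm9) is named by a cDNA clone. A second probe against the RefSeq mRNA, at chr11:65789937-65789996, had 61.0 in 5/6Nx and 30.3 in sham, a difference of 1.01. Both probes of Dnahc9 thus gave about the same difference. The value was 0.87 with spike-in scaling and 0.93 when the arrays were scaled to their median, both under 2-fold.

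Dnahc5 (Dnah5), the outer arm heavy chain whose loss is a known cause of primary ciliary dyskinesia, stood on the other side. Its only probe, at chr15:28401496-28401555, had 42.2 in 5/6Nx and 101 in sham, a difference of -1.26 with a scanner error of 0.23, or 2.39-fold lower in 5/6Nx. With other background corrections the difference was under 2-fold, -0.62 with normexp and -0.56 without background subtraction. The remaining outer arm chains lay under 2-fold. Dnahc11 (Dnah11), a heavy chain of the proximal outer arm, had 81.1 in 5/6Nx and 50.1 in sham, a difference of 0.70. Dnahc8 (Dnah8), a chain best known from sperm, had 415 in 5/6Nx and 283 in sham, a difference of 0.55, and its second probe gave 0.79. Dnahc17 (Dnah17), also known from sperm, had 60.5 in 5/6Nx and 54.6 in sham, a difference of 0.15. Of the 5 outer arm chains, 4 thus lay above 0 and Dnahc5 below.

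Inner arm heavy chains shape the bend of the cilium. The 8 measured, with Dnahc14 counted here, had a median of -0.04, 4 on each side of 0. Dnahc7a (Dnah7a) was the only one at least 2-fold apart by the probe that represents it, with 187 in 5/6Nx and 587 in sham, a difference of -1.65, or 3.14-fold lower in 5/6Nx. Its other probes did not show this. The probe at base 4168 of the RefSeq mRNA had 42.7 in 5/6Nx and 45.8 in sham, a difference of -0.10, and the probe at base 11795 had 50.8 in 5/6Nx and 23.8 in sham, a difference of 1.09. The lower value rests on a cDNA clone that the array's annotation calls unclassifiable. The gene stood at -0.22 as the mean over its probes and at -0.10 with probes matched by accession. It also stood at -0.10 without probes named by a cDNA clone, a choice made after the values were seen. The 3 measured probes of Dnahc7a are shown because their readings lie on both sides of 0, in lower case and 5′ to 3′ as printed on the array, with their mm9 position.
Dnahc7a cDNA clone probe, chr1:53754891-53754950: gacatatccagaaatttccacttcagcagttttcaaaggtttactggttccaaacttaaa
Dnahc7a mRNA probe from base 4168, chr1:53616194-53618773: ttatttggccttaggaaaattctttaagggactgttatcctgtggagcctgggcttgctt
Dnahc7a mRNA probe from base 11795, chr1:53468351-53468410: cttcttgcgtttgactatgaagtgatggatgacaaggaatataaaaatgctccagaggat
The probe from base 4168 spans an intron on the genome. Dnahc7a and Dnahc7b are close copies, so signal shared between them cannot be told apart.

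The other inner arm chains differed by less. Dnahc7b (Dnah7b) had 306 in 5/6Nx and 394 in sham, a difference of -0.36, and Dnahc1 (Dnah1) had 72.0 in 5/6Nx and 92.4 in sham, also -0.36. Dnahc6 (Dnah6) had 1358 in 5/6Nx and 1080 in sham, a difference of 0.33. Dnahc14 (Dnah14), read by a cDNA clone probe, had 94.9 in 5/6Nx and 68.7 in sham, a difference of 0.47. These 4 values were between 1.62 and 2.13 times their scanner error. Dnahc2 (0.07), Dnahc10 (-0.15) and Dnahc12 (0.17) lay within it. A further 4 heavy chain probes were well above background on 1 array only. Those of Dnahc17 and Dnahc7b read 1.92-fold and 1.49-fold higher in 5/6Nx, with scanner errors of 0.42 and 0.43 (log2). These 2 are plain ratios to a dim sham value and not bounds. The probe of Dnahc6 gives a bound of at least 1.43-fold higher in 5/6Nx, and that of Dnahc12 of at least 1.25-fold lower. None of the 4 values says whether the difference reaches 2-fold.

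**Figure D3:**
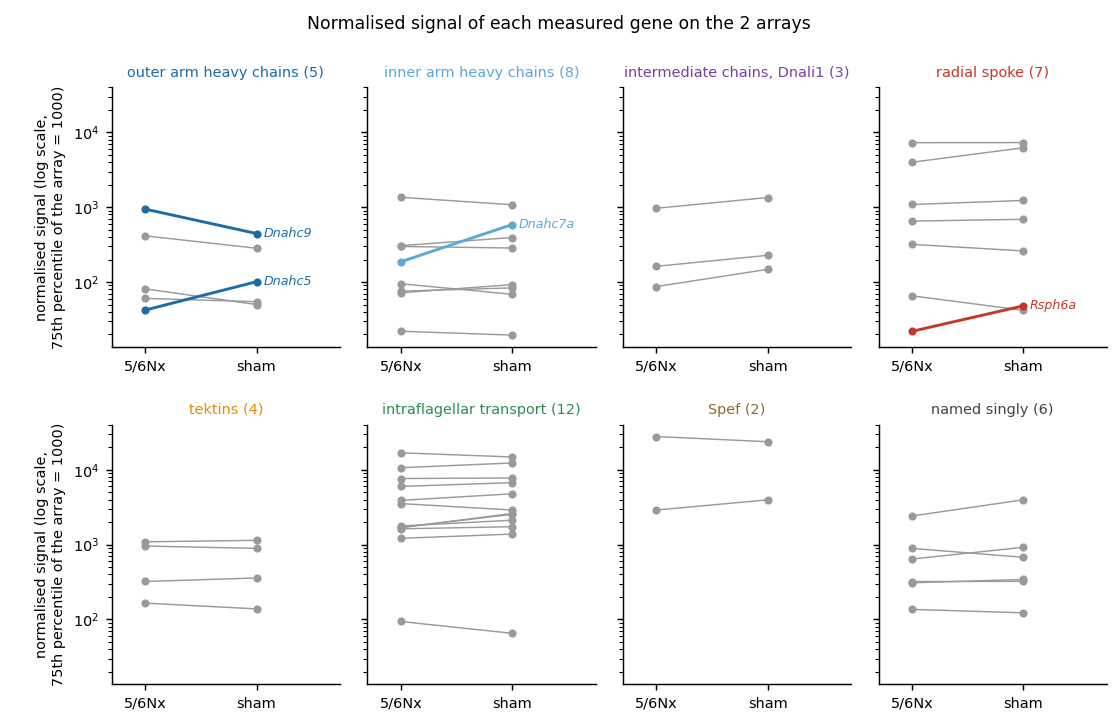
Normalised signal (log axis, 75th percentile of each array = 1000) of the 47 measured genes on the 5/6Nx and the sham array, 1 line per gene and 1 panel per structural group. Coloured lines are the 4 genes at least 2-fold apart and grey lines the 43 others. Levels of different genes come from different probes and are not to be compared within a panel.

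Intermediate chains dock the outer arm to the doublet, and the light intermediate chain Dnali1 belongs to the inner arm. All 3 lay below 0, with a median of -0.49, and none reached 2-fold. Dnaic2 had 87.1 in 5/6Nx and 148 in sham, a difference of -0.76. Dnali1 had 162 in 5/6Nx and 228 in sham, a difference of -0.49, and Dnaic1 had 968 in 5/6Nx and 1349 in sham, a difference of -0.48. The sham array was thus the brighter for each of the 3, by more than the scanner's error and by less than 2-fold. Each has 1 probe.

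The 7 radial spoke genes had a median of -0.08, with 1 at least 2-fold lower and 0 higher, against 3.29% and 4.89% of all genes. Rsph6a, a spoke head gene known mainly from sperm, had 21.96 in 5/6Nx and 48.1 in sham, a difference of -1.13 with a scanner error of 0.30, or 2.19-fold lower in 5/6Nx. The lowest normalised signal well above background was 13.5 on the 5/6Nx array and 11.9 on the sham array, so this gene lay near the limit of measurement. With normexp its difference was -0.34 and without background subtraction -0.28. Rsph9, a spoke head gene of ependymal and airway cilia, had 3994 in 5/6Nx and 6239 in sham, a difference of -0.64. Rsph10b2 had 65.5 in 5/6Nx and 42.0 in sham, a difference of 0.64, and its second probe also gave 0.64. The spoke head gene Rsph1 had -0.18 and its second probe -0.10. Rsph4a, also of the spoke head, had 0.29 and its second probe -0.28, on the other side of 0. The stalk gene Rsph3a had -0.08, with further probes at 0.36 and -0.40, and Rsph3b had -0.0035. As near-identical copies Rsph3a and Rsph3b may share signal.

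Tektins lay close to 0. Of 4 measured, 0 reached 2-fold, against 8.18% of all genes, and the median was 0.02. Tekt1 had 958 in 5/6Nx and 892 in sham, a difference of 0.10, and its second probe gave 0.26. Tekt4 had 1092 in 5/6Nx and 1142 in sham, a difference of -0.06. Tekt5 stood at -0.16 and Tekt2 at 0.26. All 4 tektins lay within 0.26 of 0, and their median was -0.19 with spike-in scaling.

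Intraflagellar transport proteins move as trains, with IFT-B outward and IFT-A on the way back. Of the 12 genes 0 were at least 2-fold apart, against 8.18% of all genes. Below 0 lay 9 of the 12, against 44.6% of all genes, and the median was -0.18. Among the IFT-B genes, Ift46 had 16884 in 5/6Nx and 14847 in sham, a difference of 0.19. Ift27, the small GTPase of the train, had 10673 in 5/6Nx and 12346 in sham, a difference of -0.21. Ift20, which also works at the Golgi apparatus, had 7653 in 5/6Nx and 7775 in sham, a difference of -0.02. Ift88, the gene of the classic mouse model of cilium loss, had 3540 in 5/6Nx and 2905 in sham, a difference of 0.28.

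The lowest values of the IFT-B genes were those of Ift74 and Ift80. Ift74, a tubulin-binding subunit, had 1685 in 5/6Nx and 2608 in sham, a difference of -0.63, but its second probe had 291 in 5/6Nx and 178 in sham, a difference of 0.71. Ift80 had 1701 in 5/6Nx and 2540 in sham, a difference of -0.58, from its only probe. Ift46 also had a second probe on the other side of 0, at -0.72. That probe was far dimmer, with 33.8 in 5/6Nx and 55.6 in sham. The remaining IFT-B genes Ift172 (-0.26), Ift52 (-0.19), Ift57 (-0.17) and Ift81 (-0.09) lay below 0. Of the IFT-A genes, Ift122 stood at -0.29 and its second probe at 0.0022, and Ift140 stood at 0.53.

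Probes of 1 gene often disagreed. Of the 12 with several measured probes, 7 had readings on both sides of 0, against 35.2% of 7995 such genes on the whole array, and the median gap between the highest and lowest probe was 0.41 against 0.33. In Dnahc7a and Ift74 the probes lay on both sides of 0 and over 1 apart, 2 of 12 against 8.43% of all such genes. For 31 of the 49 genes only 1 probe exists and no such comparison could be made.

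Spef1, which binds microtubules of the central pair, had 2902 in 5/6Nx and 3969 in sham, a difference of -0.45. Spef2, a central pair protein also needed for sperm tails, had 27833 in 5/6Nx and 23763 in sham, a difference of 0.23. Its second probe was far dimmer, with 169 in 5/6Nx and 208 in sham, a difference of -0.31. Of the 6 genes named singly, 4 lay below 0, with a median of -0.08, and 0 reached 2-fold. Fam183b, a ciliary gene of ependymal cells, had 2416 in 5/6Nx and 3978 in sham, a difference of -0.72. Ccdc153, a commonly used ependymal marker, had 643 in 5/6Nx and 922 in sham, a difference of -0.52. Tmem212, another ependymal marker, had 309 in 5/6Nx and 343 in sham, a difference of -0.15. Hydin, whose loss impairs the beating of cilia and causes hydrocephalus in mice, had 321 in 5/6Nx and 324 in sham, a difference of -0.01. Dynlrb2, a roadblock-type dynein light chain, had 891 in 5/6Nx and 678 in sham, a difference of 0.39. Mlf1, a ciliated-cell gene of less defined role, had 136 in 5/6Nx and 123 in sham, a difference of 0.15.

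Genes with and without an X-box arm had similar medians. The 19 measured genes with an arm had a median of -0.06 and 1 (5.26%) at least 2-fold apart, Dnahc7a. The 22 measured genes without an arm had a median of -0.11 and 3 (13.6%) at least 2-fold apart. Of all measured genes 8.18% differed by that size. Only the exact letters of the arm were searched, so a promoter with a variant, such as that of Dnahc6, counts as without. Of the 4 genes at least 2-fold apart, 3 (Dnahc5, Dnahc7a and Rsph6a) were among the 22 below the median signal of all genes, where 11.5% of all genes passed that size, against 4.82% above it.

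Further genes of ependymal cells and of the axoneme were read from lists chosen for this purpose, leaving out the genes above. Of 15 measured ependymal markers 1 (6.67%) was at least 2-fold higher and 2 (13.3%) were lower, with a median of -0.35. Of all measured genes 4.89% were higher and 3.29% lower. Rarres2, the chemerin gene, had 1250 in 5/6Nx and 3144 in sham, a difference of -1.33, and Nnat, which neurons express too, had -1.31. Cfap126, which acts in basal body positioning, was higher at 1.15, and Vim, the vimentin gene shared with astrocytes, had 0.72. Foxj1, named here outside the rule as the defining regulator of motile cilia, had 465 in 5/6Nx and 440 in sham, a difference of 0.08. Of the 17 listed ependymal markers 15 were thus measured on both arrays, with no common direction. Some of these are shared with other cell types, so their signal need not come from the ependyma.

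The list of the cilia transcription program had 2 of 14 measured genes (14.3%) at least 2-fold higher, against 4.89% of all measured genes. It had 0 lower, against 3.29%, and a median of 0.17. The higher ones were Ccno, a cyclin-like gene of centriole amplification, with 1434 in 5/6Nx and 628 in sham (1.19), and Gmnc, which starts the multiciliated program, with 161 in 5/6Nx and 72.5 in sham (1.15). Cep152 (0.59) and Rfx2 (0.52) followed. Of 69 measured genes of other axonemal proteins 8 (11.6%) were at least 2-fold higher and 5 (7.25%) lower, with a median of 0.19. Together 18.8% of them differed at least 2-fold, against 8.18% of all measured genes, whose median was 0.05. Among all genes below the median signal the share was 11.5%. Several of the axonemal genes past 2-fold had another measured probe well under it. Cfap206, whose Tetrahymena counterpart docks a radial spoke, had 80.8 in 5/6Nx and 21.98 in sham, a difference of 1.88, but its second probe stood at -0.05. Spag6, a central pair gene, had 138 in 5/6Nx and 54.7 in sham, a difference of 1.33, and its second probe gave 1.15. Morn5 had 272 in 5/6Nx and 819 in sham, a difference of -1.59, and Wdr78 had 656 in 5/6Nx and 1669 in sham, a difference of -1.35. Genes of the primary cilium, 55 measured, had a median of -0.0031, with 1 (1.82%) at least 2-fold higher and 2 (3.64%) lower. The lower ones were Rpgrip1l (-1.39) and Ttc30a1 (-1.04), and Evc had 0.82. With spike-in scaling the medians turned to -0.05 for the transcription program and -0.02 for the other axonemal genes, and the primary cilium genes stood at -0.22.

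The choroid plexus bears cilia as well, and its markers lay apart from the cilium genes. Of 24 measured choroid plexus markers 19 (79.2%) were at least 2-fold higher and 1 was lower, with a median of 1.99, against 1 of the 47 cilium genes higher and a median of -0.09. Ttr, the transthyretin gene, led at 6.66, followed by Clic6 (4.90), Kcne2 (4.81) and Ecrg4 (4.52). The summed normalised signal of these markers was 252756 in 5/6Nx and 34175 in sham. Ttr made up 150018 of it in 5/6Nx and 1488 in sham, and without Ttr the sum of the other 23 was 102738 in 5/6Nx and 32688 in sham. Markers of leptomeningeal fibroblasts, which cover the brain surface, ran the other way, with 12 of 14 at least 2-fold lower and a median of -2.16, led by Slc22a2 (-3.11), Slc22a6 (-2.61), Aldh1a2 (-2.59) and Slc6a13 (-2.53). Blood cell markers had 8 of 10 at least 2-fold lower and a median of -3.65, with the neutrophil genes S100a9 at -4.39 and S100a8 at -4.34 and the red cell genes Hbb-bt at -3.97 and Alas2 at -3.87. Astrocyte markers had a median of 0.03 over 11 (-0.18 with spike-in scaling), with Gfap at 1.12, Aqp4 at -0.83, Sox9 at 0.45 and S1pr1 at -0.26. The part of these other cell types in the values of the cilium genes was not tested.

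**Figure D4:**
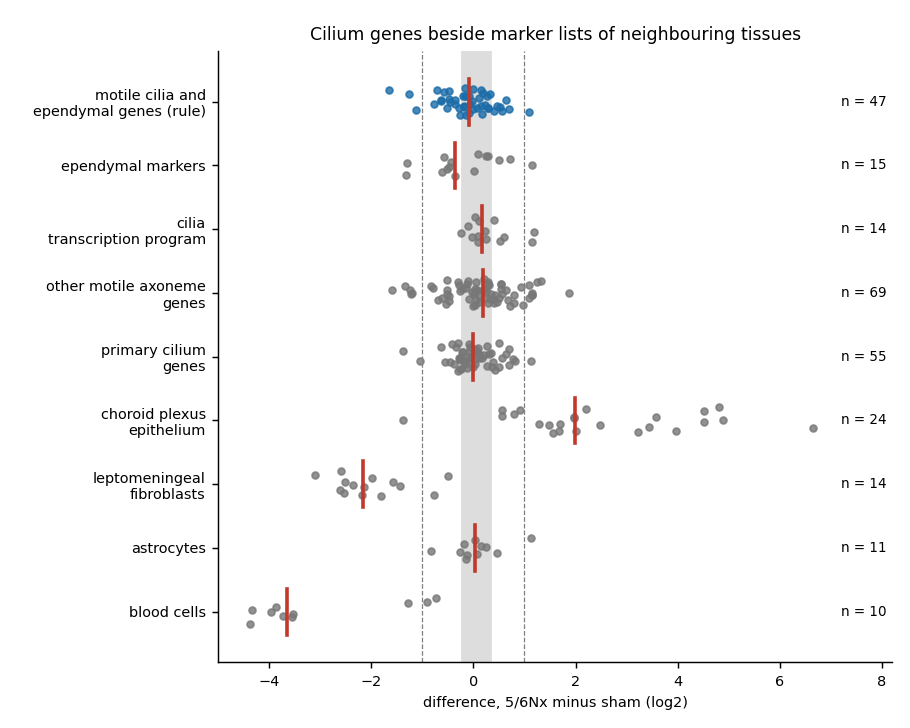
Difference between 5/6Nx and sham (log2) of each measured gene of the cilium genes (blue) and of 8 comparison lists without them (grey), 1 point per gene with a random vertical offset. Red bars are list medians, dashed lines mark 2-fold, and the grey band is the middle 50% of all measured genes. The cilium genes centre on -0.09, the choroid plexus markers on 1.99, the leptomeningeal markers on -2.16 and the blood cell markers on -3.65.

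**Figure D5:**
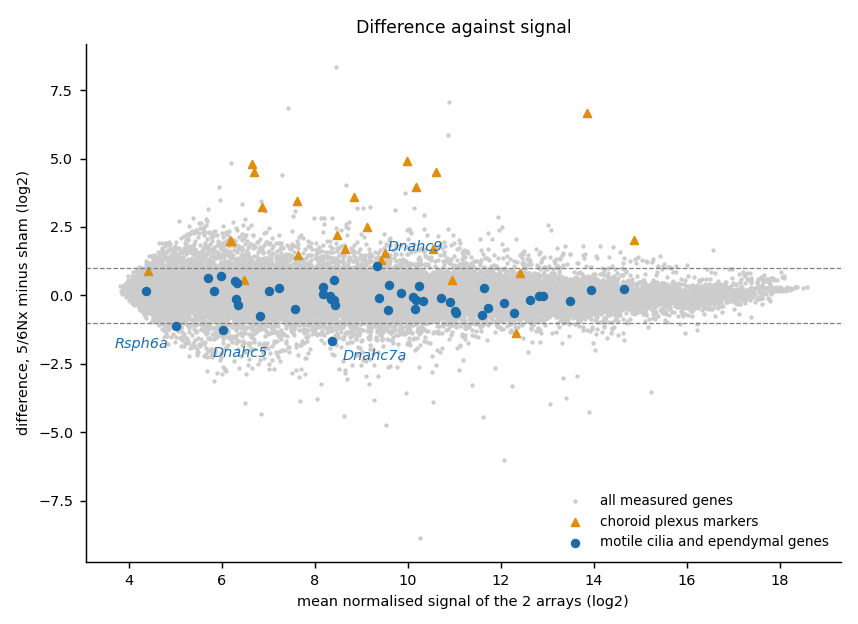
Difference between 5/6Nx and sham (log2) against the mean normalised signal of the 2 arrays (log2) for all 25917 measured genes (grey), the 47 cilium genes (blue circles) and 24 choroid plexus markers (orange triangles), with dashed lines at 2-fold. Blue labels name the 4 cilium genes at least 2-fold apart, and 3 of them lie in the dimmer part of the range.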

How the data were processed

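The authors deposited the scanner output of 2 Agilent arrays, 1 for 5/6Nx and 1 for sham, holding a linear intensity for every spot. The extraction software was Feature Extraction 10.7.1.1, per the file headers, and 9.5.1.1 in the submitters' processing notes. This intensity is, per the file headers, background-subtracted within each array and not normalized between arrays. A deposited table of normalized intensity was also tried. Control and outlier spots were left out, log2 values were set to each array's 75th percentile, and a gene was represented by its probe of highest mean value among those well above background on at least 1 array. Genes count as measured where that probe passed on both arrays. Probes were named through RefSeq (27235 by accession, 3581 by symbol, 565 by synonym, 24300 as in the file), members by the file's name. Higher or lower means at least 2-fold, a size and not a test. The number of arrays limits the precision, and no p-value was computed.

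Named genes are those at least 2-fold apart, the 3 of highest signal in each structural group, the genes named singly, those with discordant probes and the 4 largest differences of each comparison list. The remaining members were named after their values were seen, so that each is accounted for. A comparison gene that the rule names is not reported here. Members and lists were chosen with earlier results of these data known. The alternatives were 4 scalings (quantile, median, lowess with span 0.3, spike-in), normexp with offset 50, no background subtraction, the deposited table, other filters, probe rules and thresholds. Calculations used Python 3.11.15 and limma 3.58.1 and were tested on simulated data.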

Additional observations from a re-analysis of the deposited data

How the results depend on the processing

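No paired analysis was possible because 5/6Nx and sham have a single array apiece, which also prevents leaving one out. What dim probes can show is limited by their signal over background. The direction of Dnahc5, Dnahc7a, Dnahc9 and Rsph6a was the same under every alternative run on them, although these genes were picked for size on the same arrays. Scaling to the median or to spike-ins shifts all genes alike, by too little to reverse differences of this size. For Dnahc7a the direction includes a value of -0.10, within that probe's scanner error of 0.24, while another measured probe read 1.09. The number of genes at least 2-fold higher was 0 with spike-in scaling and with scaling to the median, and 2 with no filter on dim probes. Of all genes 3.09%, 3.48% and 7.46% were higher under these settings. The number lower was 1 with normexp, 1 without background subtraction and 0 among genes above the median signal, where the filter removes the 3 genes. The number lower was 2, without Dnahc7a, with the mean over probes, with probes matched by accession and without cDNA clone probes. Of all genes 3.10%, 4.12% and 3.39% were lower in these cases. At 1.5-fold 3 genes (6.38%) were higher and 7 (14.9%) lower, against 13.7% and 8.92% of all genes. At 3-fold 0 were higher and 1 (2.13%) was lower, against 1.49% and 0.945% of all genes. Spike-in scaling shifts all genes by 1 constant and gave medians of -0.31 for all the cilium genes, 0.34 for outer arm and -0.25 for inner arm heavy chains, -0.70 for intermediate chains, -0.29 for radial spoke genes, -0.19 for tektins, -0.39 for intraflagellar transport, -0.33 for Spef genes and -0.29 for genes named singly. Among genes above the median signal fewer genes remain. Of the outer arm heavy chains only Dnahc9 was left, at 1.09, and of the inner arm only Dnahc6, at 0.33, so these are not group medians. The genes named singly had a median of -0.52 there. For the other moved values the cause was not tested.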
